A study of Homo sapiens with 6 samples.

Results

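The MYC, MAX and MLX network was followed here through 10 genes, taken by gene symbol from a table of 29435 genes: MYC, its partner MAX, the repressors MXD1, MXD4, MXI1 and MNT, the related factor MLX with its partner MLXIP, and the MLXIP targets TXNIP and ARRDC4. RNA had been sequenced from cells labelled HepG2, an established human hepatoma line, treated for 4 h with 20 µM saikosaponin A, a triterpenoid saponin of Bupleurum root, or with its vehicle DMSO alone. Both groups were grown in DMEM with fetal bovine serum, and each has 3 libraries, numbered 1 to 3 in the labels. The labels do not say whether the libraries came from separate cultures, so each p-value weighs a difference only against the spread among these libraries, which may be technical.

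MYC is a transcription factor that works only when paired with MAX, and the pair activates genes through a short DNA element, the E-box. MXD1, MXD4, MXI1 and MNT take MAX away from MYC and bring the SIN3 histone deacetylase complex to the same elements, so they repress what MYC activates. MLX is a MAX-like partner for a parallel branch: it pairs with MLXIP, also called MondoA, which senses phosphorylated glucose and switches on TXNIP and ARRDC4, arrestin-like proteins that restrain glucose uptake.

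The promoters of several members hold the letters of the element that the network's proteins are known to bind, and those stretches are shown for that reason. RefSeq promoter windows, from 250 bases before to 50 after a gene's start on GRCh38.p14, matched 9 of the 10 members, and MYC had none. The E-box CACGTG, which reads the same on both strands, was found in 7.26% of 35116 windows of all genes and in those of MNT, MXD4, MLX and ARRDC4. The windows of MAX, MXD1, MXI1, MLXIP and TXNIP did not hold these letters. A pair of CACGNG boxes with 5 bases between them, searched on both strands as a loose form of the carbohydrate response element, was found in 0.057% of windows, and 1 of the 2 windows of TXNIP held it. The stretches below are those around each match, 5′ to 3′ on the gene's strand, shortened at an annotated exon or at the edge of the window, with the match in capitals.
MNT: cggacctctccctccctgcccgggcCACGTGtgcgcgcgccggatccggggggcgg
MXD4: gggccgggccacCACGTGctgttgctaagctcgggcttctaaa
MLX: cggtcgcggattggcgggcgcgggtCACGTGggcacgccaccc
ARRDC4: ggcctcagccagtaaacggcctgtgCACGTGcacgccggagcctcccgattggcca
TXNIP: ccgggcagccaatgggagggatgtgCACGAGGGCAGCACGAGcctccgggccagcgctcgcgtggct
The stretch of MNT is chr17:2401223-2401278 (minus strand), that of MXD4 chr4:2262317-2262359 (minus), that of MLX chr17:42567025-42567067 (plus), that of ARRDC4 chr15:97960468-97960523 (plus) and that of TXNIP chr1:145996626-145996692 (minus). The first base of the match lies 193 bases before the RefSeq start of MNT, 238 before that of MXD4 and 50 before that of MLX. It lies 210 bases before the RefSeq start of ARRDC4 and 88 before that of TXNIP. These starts can differ from the gene coordinates given below, which are the deposited ones. A match is a description of the sequence and shows no binding.

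The libraries held 57768359 to 74912492 counts, and 11427 genes with a deposited FPKM (fragments per kilobase of transcript, scaled to the size of the library) of at least 1 in at least 3 libraries were tested. Mitochondrially encoded genes took 14.9% of the counts in DMSO replicate 3 and 18.8% in saikosaponin A replicate 1, against 6.19 to 8.28% in the other 4 libraries, so values from the 4 alone are set beside the members' results. Of 16 hepatocyte markers 9 had a row, among them APOA1, TF, FGB and HNF4A, and all 9 had a mean below 0.1 FPKM. The others, ALB and AFP among them, had no row. Of 8 keratinocyte and other epithelial markers 5 had a row. Among these KRT7 and KRT17 were above 1 FPKM, while KRT13, TP63 and KRT20 were below 0.1. The liver identity in the label was thus not seen in the RNA. Of 7 fibroblast and stellate cell markers with a row, 4 (COL1A1, COL3A1, PDGFRB and ACTA2) were above 1 FPKM, while DCN and THY1 were below 0.1. All 7 together summed to 34.4 to 45.5 FPKM in DMSO and 29.1 to 35.6 with saikosaponin A. Their part in the results was not tested. Over 11382 tested genes with a known length the log2 fold change had a Spearman correlation of -0.64 with the longest annotated transcript, a description across genes, which are not independent replicates. Each member's longest transcript is therefore given, and fold changes are repeated after a correction that removes each library's trend with length.

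Saikosaponin A libraries held less MNT, MLXIP and MXD1 RNA and more MLX RNA than DMSO libraries. MNT fell 3.17-fold, MLXIP 2.81-fold and MXD1 1.74-fold in mean CPM (counts scaled to a common library size by TMM, edgeR's trimmed mean method), while MLX rose by 29.7%. MYC, MAX, MXD4, MXI1 and TXNIP did not pass the test in all 6 libraries (edgeR's quasi-likelihood test, Benjamini-Hochberg adjusted p below 0.05), and ARRDC4 lay below the expression filter. Of the 9 tested members 3 were thus lower, where 27.9% of all tested genes were lower, and 1 was higher, where 25.9% were. The groups did not overlap in CPM for 5 of the 9, where this held for 62.8% of all tested genes. With 9 members nothing is read from these counts, and the results below concern single members, not the network as a set. In bulk RNA, fewer cells of a type and less RNA per cell cannot be told apart.

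**Figure D1:**
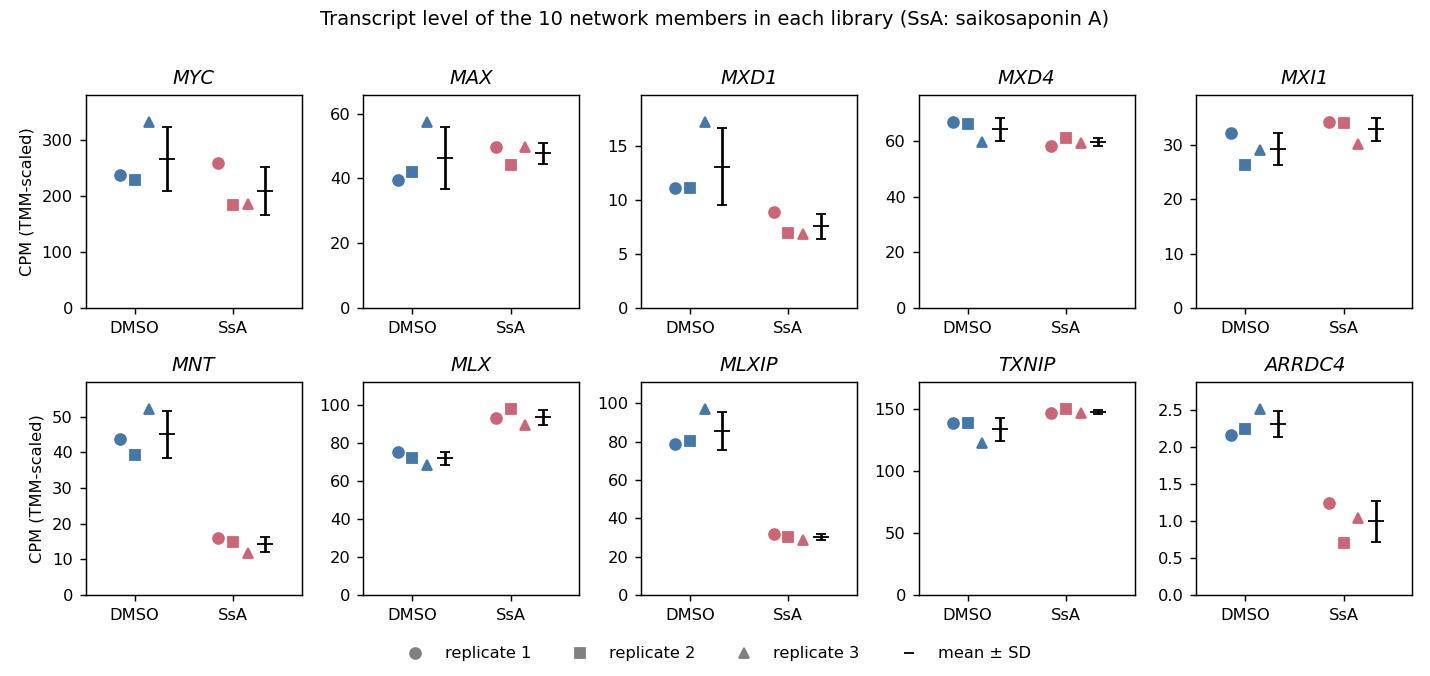
CPM on the TMM-scaled library size (vertical axes, each from 0) of the 10 members in DMSO and saikosaponin A (SsA) libraries, with a point for each replicate and the mean ± SD beside them. The 3 saikosaponin A libraries lie below all DMSO libraries for MXD1, MNT, MLXIP and ARRDC4 and above them for MLX and TXNIP.

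The 3 members that fell are those with the longest transcripts, at 4996 nt for MNT, 5587 nt for MXD1 and 8427 nt for MLXIP. The others have 2366 nt (MYC), 2586 nt (MLX), 2926 nt (TXNIP), 3155 nt (MAX), 3470 nt (MXI1), 4072 nt (ARRDC4) and 4228 nt (MXD4). After the length correction MNT and MLXIP remained lower, and MXD1 and MLX no longer passed. With that correction 2 of 9 members were lower (15.3% of all tested genes were) and 0 were higher by edgeR (15.7% of all tested genes were), with 1 higher at an unadjusted p below 0.05. On deposited FPKM and on TPM, limma called 0 members higher, also 0 without adjustment, and 4 lower, with MYC as the 4th; all tested genes gave 8.0% higher and 32.6% lower on FPKM and 0.429% and 21.4% on TPM. In the 4 libraries of like, low mitochondrial share, edgeR called 1 member higher and 5 lower, adding MYC and MXD4, against 33.3% and 34.5% of all tested genes. The fall of MNT and MLXIP is larger than the median of genes of like length, as the plot against transcript length shows.

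**Figure D2:**
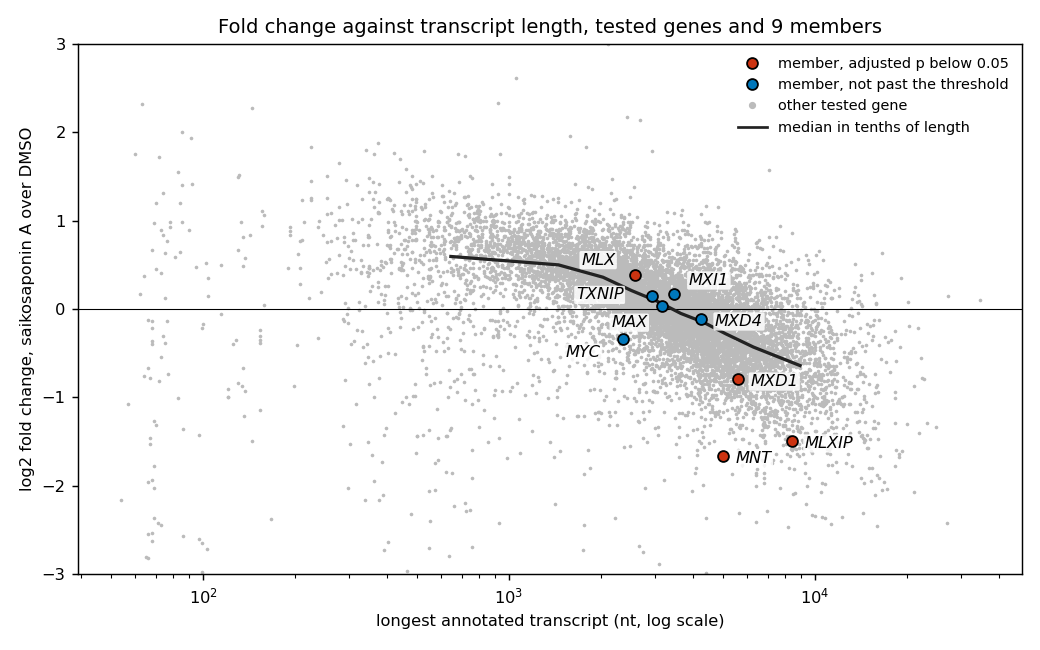
Log2 fold change (vertical axis, saikosaponin A over DMSO) against the longest annotated transcript (horizontal axis, nt, log scale) for the tested genes in grey, with 23 genes beyond a fold change of 3 on the log2 scale not drawn, their median in bins of length as a line, and the 9 tested members as large points. MNT, MLXIP and MXD1 lie below the line, MYC lies below it at 2366 nt, and MAX, MXD4, MXI1, MLX and TXNIP lie close to it.

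MYC was the most abundant member per length in DMSO, at 52.6 ± 6.29 FPKM (SD, n = 3), above TXNIP (34.3 ± 5.14) and MLX (15.6 ± 1.98). Its gene lies on chromosome 8 from 127735434 to 127741434 (GRCh38, plus strand). In CPM it stood at 237, 229 and 331 in DMSO replicates 1, 2 and 3 and at 258, 184 and 186 in saikosaponin A replicates 1, 2 and 3. The highest value of each group came from its library of high mitochondrial share, and the groups overlapped because saikosaponin A replicate 1 exceeded DMSO replicates 1 and 2. The log2 fold change was -0.34 ± 0.19 (SE), which did not pass (adjusted p by edgeR = 0.156).

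Within each kind of library the difference in MYC was the same size. Between the 2 libraries of high mitochondrial share, saikosaponin A replicate 1 was lower than DMSO replicate 3 by a log2 ratio of -0.36, with no replicate. In the 4 other libraries, of 2 per group, the log2 fold change was -0.36 ± 0.04 and passed (adjusted p by edgeR = 6.01e-05). Leaving out 1 library of the 6 gave a pass only without saikosaponin A replicate 1 (-0.52 ± 0.17, adjusted p by edgeR = 0.0359). The value was smallest without DMSO replicate 3 (-0.17 ± 0.16, adjusted p by edgeR = 0.413), and it was -0.26 and -0.27 without saikosaponin A replicates 2 and 3. On the scale of deposited FPKM the groups did not overlap, at 48.1 to 59.8 in DMSO and 34.3 to 42.7 with saikosaponin A, and limma passed it (log2 fold change -0.49 ± 0.13, adjusted p by limma = 0.024). The length correction moved the value to -0.58 ± 0.20 (adjusted p by edgeR = 0.067). MYC was thus lower in every fit tried, and whether it passed depended on the scaling and the libraries.

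MAX is the obligate partner of MYC and a partner of the repressors here (chromosome 14, 65006174 to 65102695, minus strand). Its CPM values were 39.6, 42.1 and 57.3 in DMSO replicates 1 to 3 and 49.6, 44.0 and 49.7 in the saikosaponin A ones. The treated libraries lie inside the DMSO range. Between the groups the log2 fold change was 0.04 ± 0.14 (adjusted p by edgeR = 0.811), and its sign turned under several scalings. In the 4 libraries with few mitochondrial reads it was 0.17 ± 0.07 (adjusted p by edgeR = 0.0588). Per length, MYC exceeded MAX by a ratio of FPKM of 8.19, 7.43 and 7.89 in DMSO replicates 1 to 3 and of 7.12, 5.70 and 5.13 in the treated ones. The treated ratios all lay below the DMSO ratios. MAX overlaps FNTB on the opposite strand, and although the library preparation marks strand, the sources used here do not say whether the counting used it.

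MNT, the broadly expressed repressor that pairs with MAX and also with MLX, fell most of the tested members. The gene lies on chromosome 17 from 2384073 to 2401104 (minus strand). Its CPM was 43.6, 39.3 and 52.0 in DMSO replicates 1 to 3 and 16.0, 14.8 and 11.8 with saikosaponin A. Every treated library was below 20 and every DMSO library above 39, a gap far wider than the spread in either group. The log2 fold change was -1.66 ± 0.15 (SE, adjusted p by edgeR = 2.57e-04), and it was -1.41 ± 0.14 after the length correction (adjusted p by edgeR = 7.88e-04). MNT passed as lower in each of 19 alternative fits, with log2 fold changes from -1.80 to -1.08.

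MXD1, a repressor that replaces MYC on MAX when cells leave the cycle (chromosome 2, 69897688 to 69942942, plus strand), was the least abundant tested member. Its CPM was 11.1, 11.1 and 17.2 in DMSO replicates 1 to 3 and 8.93, 6.94 and 6.83 with saikosaponin A. The groups did not overlap, and DMSO replicate 3 stood highest. MXD1 fell with a log2 fold change of -0.79 ± 0.22 (SE, adjusted p by edgeR = 0.0187). The call was lost after the length correction (-0.46 ± 0.20, adjusted p by edgeR = 0.127), without saikosaponin A replicate 2 (adjusted p by edgeR = 0.0673), without saikosaponin A replicate 3 (0.0663) and on quantile-normalised FPKM (-0.35, adjusted p by limma = 0.0698). In all, 13 of 19 alternatives kept it. MXD1 overlaps the gene SNRNP27 on its strand in the annotation, and the latter had a log2 fold change of 0.18 ± 0.14 (adjusted p by edgeR = 0.295).

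The other repressors of this kind, MXD4 and MXI1, were nearly level between the groups. MXD4 (chromosome 4, 2247432 to 2262109, minus strand) had CPM values of 66.8, 66.4 and 59.6 in DMSO and 58.4, 61.3 and 59.5 with saikosaponin A, so the groups overlapped. Its log2 fold change of -0.11 ± 0.07 did not pass (adjusted p by edgeR = 0.234). It passed as lower in the 4 libraries with few mitochondrial reads (-0.17 ± 0.05, adjusted p by edgeR = 0.0108) and without DMSO replicate 3 (-0.17, adjusted p by edgeR = 0.0499), and was 0.04 after the length correction. MXI1 (chromosome 10, 110207605 to 110287365, plus strand) had CPM values of 32.2, 26.3 and 29.1 in DMSO and 34.1, 34.0 and 30.2 with saikosaponin A. These overlapped as well, with a log2 fold change of 0.17 ± 0.10 (adjusted p by edgeR = 0.186).

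Set side by side per length, MXD1, MXD4, MXI1 and MNT together made up a smaller pool with another composition. Their summed FPKM was 21.1, 19.6 and 18.5 in DMSO replicates 1 to 3 and 13.3, 14.9 and 13.7 with saikosaponin A. MNT took 22.2 to 26.8% of that sum in DMSO and 8.36 to 10.5% with saikosaponin A, while MXI1 took 21.8 to 24.8% and 31.6 to 32.9%. MXD4 was the largest part in all 6 libraries, from 38.9 to 53.4%. The ratio of MYC to this sum was 2.68 ± 0.482 in DMSO and 2.67 ± 0.484 in the treated group (SD, n = 3), so the lower repressor sum came with a lower MYC level and the ratio differed by less than its spread. No test was made on these sums and ratios, which combine members chosen with earlier results known. They carry no correction for the trend with transcript length. After that correction the log2 fold changes were -1.41 for MNT, -0.46 for MXD1, 0.04 for MXD4 and 0.18 for MXI1, and of these only MNT passed. The sum leaves out MXD3, at 3.16, 2.69 and 1.74 FPKM in DMSO replicates 1 to 3 and 2.13, 3.22 and 3.94 with saikosaponin A. By limma on FPKM the median log2 fold change of all tested genes was -0.11.

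**Figure D3:**
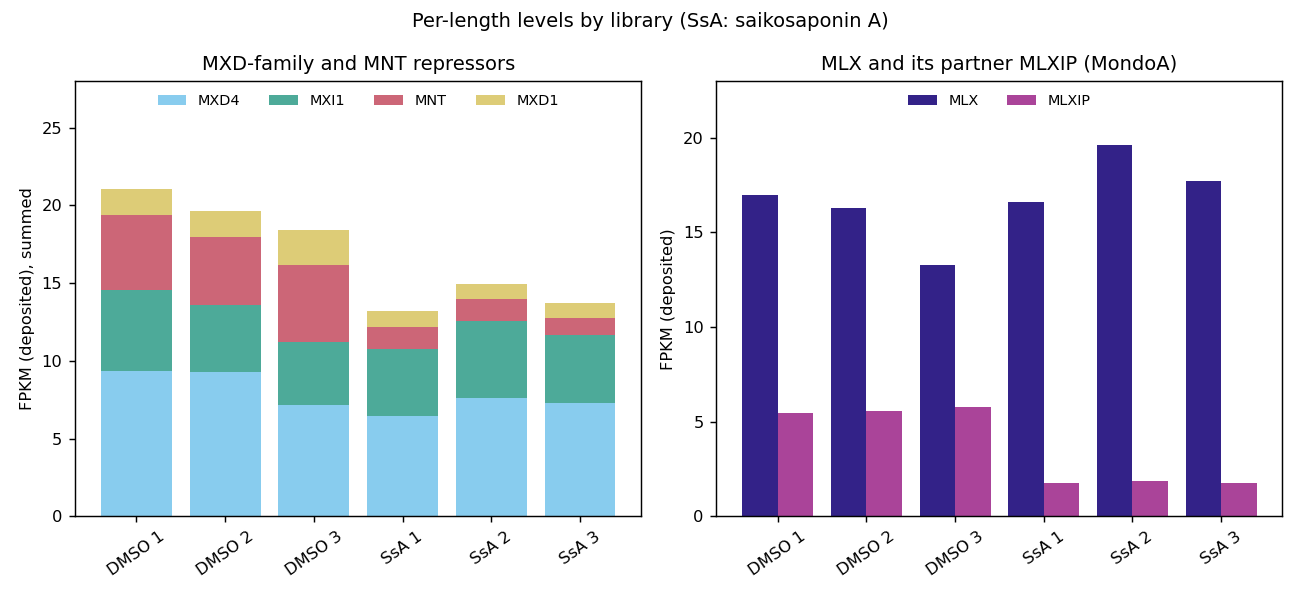
Deposited FPKM (vertical axes) in each of the 6 libraries: on the left the 4 repressors stacked, on the right MLX beside MLXIP. The MNT segment narrows in the 3 saikosaponin A (SsA) libraries, and MLXIP falls from 5.47 to 5.78 FPKM in DMSO to 1.75 to 1.86 while MLX overlaps between the groups on this scale.

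MLXIP and MLX, which form one heterodimer, moved in opposite directions in the edgeR fit on the TMM scale. MLXIP (chromosome 12, 122078756 to 122147344, plus strand), which encodes the glucose-sensing partner, had CPM values of 78.9, 80.4 and 96.8 in DMSO replicates 1 to 3 and 32.1, 30.2 and 28.7 with saikosaponin A. The highest treated library was below the lowest DMSO library by more than 40 CPM. This gave a log2 fold change of -1.49 ± 0.10 (SE, adjusted p by edgeR = 1.06e-04). MLXIP has the longest transcript of the members, 8427 nt, and the length correction reduced the change to -0.91 ± 0.08 (adjusted p by edgeR = 5.55e-04). It passed as lower in each of 19 alternative fits.

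MLX, the partner of MLXIP in the heterodimer, lies on chromosome 17 from 42567068 to 42573239 (plus strand). Its CPM was 75.4, 72.2 and 68.5 in DMSO replicates 1 to 3 and 93.3, 97.6 and 89.3 with saikosaponin A. The groups did not overlap on this scale. MLX had a log2 fold change of 0.38 ± 0.07 (SE, adjusted p by edgeR = 0.00344), and it passed without each library in turn. The rise is relative to the TMM scaling: the value was 0.20 ± 0.12 on deposited FPKM (adjusted p by limma = 0.205), 0.01 on the TPM scale (adjusted p by limma = 0.987), where the median of all genes was -0.31, and 0.19 ± 0.07 after the length correction (adjusted p by edgeR = 0.0662). PSMC3IP, which overlaps MLX on the opposite strand, rose by 0.36 ± 0.07 (adjusted p by edgeR = 0.00496), and the counts of the pair can be told apart only if strand was used. Per length, MLX exceeded MLXIP by 2.30 to 3.11 times in DMSO and by 9.47 to 10.6 times with saikosaponin A. In the edgeR fit this ratio rose 3.65-fold, and 2.14-fold after the length correction, so part of its size moves with transcript length.

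TXNIP, a direct target of the MLXIP and MLX pair that binds thioredoxin and promotes removal of glucose transporters from the cell surface, was the second most abundant member. Its gene lies on chromosome 1 from 145992435 to 145996579 (minus strand). The CPM was 139, 139 and 123 in DMSO replicates 1 to 3 and 147, 150 and 147 with saikosaponin A, so the treated libraries lay just above the others. The log2 fold change of 0.15 ± 0.07 did not pass (adjusted p by edgeR = 0.106), and it was 0.07 ± 0.04 in the 4 libraries with few mitochondrial reads (adjusted p by edgeR = 0.178). On deposited FPKM the groups overlapped, at 28.3 to 37.3 and 30.9 to 35.7, and the sign turned to -0.01 (adjusted p by limma = 0.941). With MYC lower, the treated ranges of MYC and TXNIP in FPKM overlapped, whereas MYC was above TXNIP in every DMSO library.

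ARRDC4, the other arrestin-like target (chromosome 15, 97960703 to 97973833, plus strand), was the least abundant member at 0.518 ± 0.0131 FPKM in DMSO (SD, n = 3) and at 0.198 ± 0.0453 in the treated group. It rested on 171, 183 and 142 counts in DMSO replicates 1 to 3 and 66, 48 and 66 in the treated ones, and every treated library was lower. Fitted without the expression filter, where 10.8% of 29435 genes were lower and 9.95% higher, its log2 fold change was -1.16 ± 0.28 (SE) and passed (adjusted p by edgeR = 0.0199). This call is fragile: leaving out any single library other than saikosaponin A replicate 1 gave an adjusted p from 0.05001 to 0.06 by edgeR, with log2 fold changes from -1.20 to -0.96. With the length correction it stayed at -1.03 ± 0.29 (adjusted p by edgeR = 0.0431). TXNIP exceeded ARRDC4 by 55.6 to 72.5 times in FPKM in DMSO and by 134 to 244 times with saikosaponin A, so the pair did not move in proportion; the difference was not tested.

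**Figure D4:**
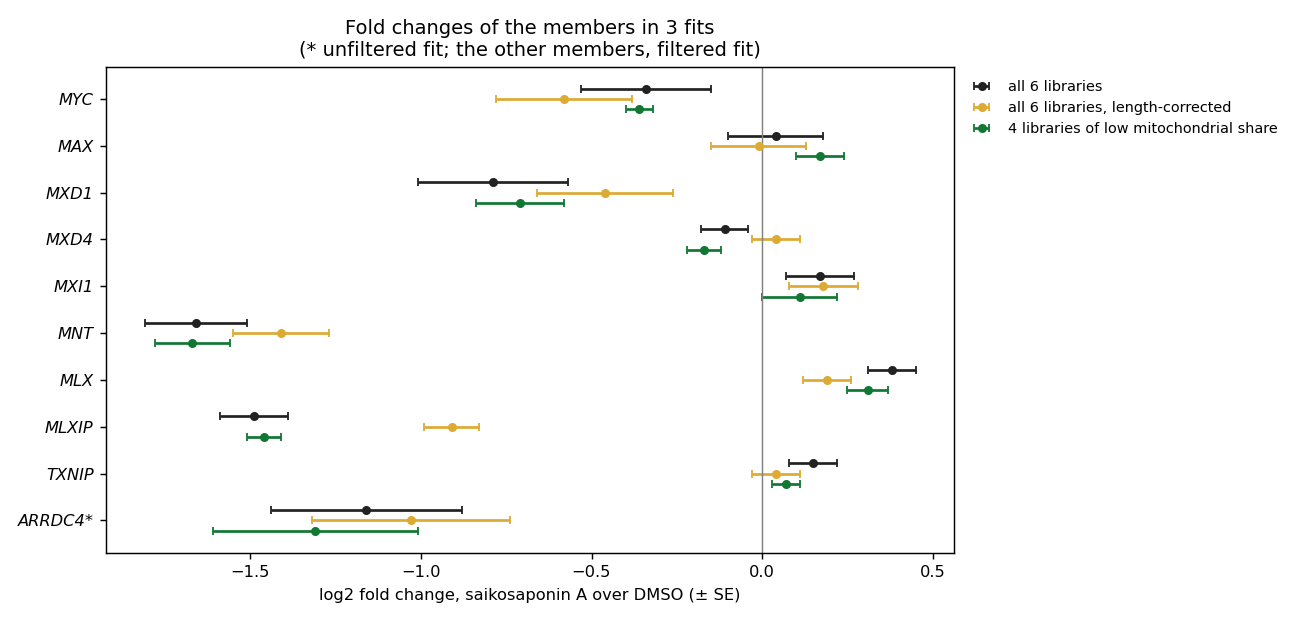
Log2 fold change ± SE (horizontal axis, saikosaponin A over DMSO) of each member in all 6 libraries, with the correction for length, and from the 4 libraries with few mitochondrial reads; ARRDC4 comes from fits with no expression filter. MNT and MLXIP stay far below 0 in each fit, and the error bar of MYC is shortest in the 4 libraries.

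By FPKM the order of levels in DMSO was MYC, TXNIP, MLX, MXD4, MAX, MLXIP, MNT, MXI1, MXD1 and ARRDC4, and neighbours overlapped for MXD4 and MAX and for MNT and MXI1. With saikosaponin A it was MYC, TXNIP, MLX, MXD4, MAX, MXI1, MLXIP, MNT, MXD1 and ARRDC4, with overlap for MYC and TXNIP and for MXD4 and MAX. The genes whose log2 CPM followed MYC most closely over the 6 libraries were ATXN2 (Pearson r = 0.9987), FGFRL1 (0.9979) and UTP25 (0.9968). Those most like TXNIP were SLC26A6 (0.9983), PEX10 (0.9971) and ASB9 (0.9957). These are the highest of all tested genes over only 6 libraries that also share their group, depth and mitochondrial share, and they describe a pattern of values.

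Of the further members of the family, only MXD3 and MGA were abundant enough to test. MGA, a large MAX partner that represses germline genes, stood at 145, 149 and 159 CPM in DMSO replicates 1 to 3 and at 79.4, 77.2 and 72.3 with saikosaponin A. Its log2 level fell by 0.98 ± 0.07 (SE, adjusted p by edgeR = 1.1e-04), but its longest transcript has 14439 nt and the change was -0.09 after the length correction (adjusted p by edgeR = 0.229). MXD3, a repressor of the MXD group, had a log2 fold change of 0.46 ± 0.22 (adjusted p by edgeR = 0.122). It passed as higher in the 4 libraries with few mitochondrial reads (0.45 ± 0.13, adjusted p by edgeR = 0.0154) and without saikosaponin A replicate 1 (0.63 ± 0.20, adjusted p by edgeR = 0.0359). MYCN (0.0062 FPKM on average), MYCL (0.467) and MLXIPL, the liver counterpart of MLXIP known as ChREBP (0.466), lay under the filter.

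The lists that follow are to be read beside all tested genes, of which 25.9% were higher and 27.9% lower in the edgeR fit, 15.7% and 15.3% after the length correction, 8.0% and 32.6% by limma on FPKM, and 0.429% and 21.4% by limma on TPM.

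Genes listed as MYC cofactors or binding partners were split by gene. Of 17 tested MYC cofactors 5 were higher and 6 lower, and their median change was -0.07 (log2) beside 0.03 for all tested genes. The scaffold gene TRRAP fell from 151, 146 and 175 CPM in DMSO to 53.2, 44.2 and 44.1 with saikosaponin A, by 1.74 ± 0.11 in log2 (adjusted p by edgeR = 8.42e-05). EP400, the ATPase of the same acetyltransferase complex, fell by 1.64 ± 0.14 (adjusted p by edgeR = 2.38e-04), and MYCBP2 by 1.05 ± 0.08 (adjusted p by edgeR = 1.27e-04). After the length correction TRRAP (-0.92) and EP400 (-0.81) still passed as lower, and MYCBP2 did not (adjusted p by edgeR = 0.117). The 5 higher ones, named after their values were seen, were RUVBL1, RUVBL2, ACTL6A and SMARCB1, further subunits of chromatin complexes, and MYCBP; on deposited FPKM limma called 0 of the 17 higher, with 2 at an unadjusted p below 0.05, and 7 lower. Without saikosaponin A replicate 3 edgeR called 3 higher.

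Among 15 tested genes that set the lifetime of the MYC protein, 3 were higher and 7 lower, with a median of -0.15. The length correction gave 1 and 3 by edgeR, and limma gave 0 and 9 on FPKM and 0 and 4 on TPM, with 1 and 0 higher at an unadjusted p below 0.05. Only 1 was higher without DMSO replicate 1 or 2 or saikosaponin A replicate 2 or 3. USP36, a nucleolar deubiquitinase, fell from 96.2 to 115 CPM in DMSO to 49.3 to 52.8 with saikosaponin A. Its log2 fold change was -1.0 ± 0.09 (adjusted p by edgeR = 2.22e-04). HUWE1, a very large ubiquitin ligase with a longest transcript of 14796 nt, had a log2 fold change of -1.57 ± 0.15 (adjusted p by edgeR = 3.16e-04). The length correction reduced the changes of USP36 and HUWE1 to -0.62 and -0.67, which still passed (adjusted p by edgeR = 0.00139 and 0.00612). GSK3B, the kinase that marks MYC for degradation, fell by 0.56 ± 0.08 (adjusted p by edgeR = 0.00112), a call lost after the length correction (adjusted p by edgeR = 0.724). Among the higher ones, named after their values were seen, were STUB1 and AURKA. FBXW7, the ligase subunit that recognises the marked protein, was under the filter at a mean of 0.950 FPKM.

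Genes known to be activated by MYC were more often higher than lower on the TMM scale. Of 58 tested, 30 were higher and 8 lower, and the median change was 0.22 (log2). On deposited FPKM 4 were higher and 8 lower by limma, on TPM 0 (also 0 unadjusted) and 4, and after the length correction 11 and 6 by edgeR with a median of 0.11. FPKM and TPM lower the whole table, with all-gene medians of -0.11 and -0.31. Leaving out 1 library gave 18 to 32 higher, the fewest without saikosaponin A replicates 2 (18) and 3 (19), and the 4 libraries with few mitochondrial reads gave 38 higher and 10 lower. The genes of smallest p all fell: CAD, the first enzyme complex of pyrimidine synthesis, by 0.99 ± 0.06 on the log2 scale, E2F2, a cell cycle transcription factor, by 0.95 ± 0.09, and UTP20, a ribosome assembly factor, by 0.75 ± 0.07 (adjusted p by edgeR = 6.61e-05, 2.63e-04 and 3.25e-04). CAD and E2F2 still passed after the length correction, at -0.49 and -0.67. The median length of the list was 2802 nt, beside 3348 nt for all tested genes.

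Of 14 tested genes known to be repressed by MYC, 6 were higher and 1 lower, with a median of 0.29. CEBPB rose by 0.63 ± 0.07 and CEBPD by 0.76 ± 0.11 on the log2 scale, both transcription factors of the acute phase response (adjusted p by edgeR = 6.62e-04 and 0.00149). CDKN2B, which encodes a CDK4 and CDK6 inhibitor, fell by 0.55 ± 0.07 (adjusted p by edgeR = 7.03e-04). The length correction gave 6 higher and 2 lower by edgeR, and limma on TPM gave 0 higher, also 0 unadjusted, and 1 lower. The part of MYC in these changes was not tested.

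Of 11 tested targets of MLXIP and its liver counterpart, 3 were higher and 4 lower, with a median of -0.28, and 3 of 11 is near the share of all genes. Only 1 was higher without DMSO replicate 1 or 3 or saikosaponin A replicate 2 or 3. By limma 0 were higher and 6 lower on FPKM and 0 and 5 on TPM, with 1 and 0 higher at an unadjusted p below 0.05. The fatty acid synthesis genes ACACA and FASN fell, with log2 fold changes of -0.89 ± 0.06 and -1.20 ± 0.11 (adjusted p by edgeR = 1.25e-04 and 2.37e-04). Their longest transcripts have 9961 and 8565 nt. The length correction reduced the changes to -0.21 and -0.61 (adjusted p by edgeR = 0.0285 and 0.0026). With that correction 2 genes of the list were higher and 4 lower by edgeR. SLC2A1, the glucose transporter that TXNIP restrains, rose by 0.50 ± 0.07 (adjusted p by edgeR = 0.00138) and by 0.54 after the length correction (adjusted p by edgeR = 0.00189). Its CPM was 78.4, 72.0 and 68.2 in DMSO replicates 1 to 3 and 103.5, 105.0 and 100.0 with saikosaponin A, with no overlap. The other higher ones, named after their values were seen, were KHK and TKFC, enzymes of fructose use, and KHK did not pass after the length correction (adjusted p by edgeR = 0.137).

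Of 9 tested genes for other arrestin-like proteins and thioredoxins, 4 were higher and 0 lower by edgeR, also 0 lower at an unadjusted p below 0.05. DESeq2 gave the same counts, with 1 lower unadjusted. The length correction gave 1 higher and 0 lower by edgeR. By limma 2 were higher and 0 lower on FPKM, and 0 and 0 on TPM, also unadjusted. TXNRD1, named after its values were seen, passed as lower by edgeR in the 4 libraries with few mitochondrial reads. It also passed as lower without DMSO replicate 3, among genes of mean FPKM of at least 5, and by limma on quantile-normalised FPKM. TXN, the cytosolic thioredoxin that TXNIP binds, rose by 0.82 ± 0.15 and its mitochondrial counterpart TXN2 by 0.61 ± 0.07 in log2 (adjusted p by edgeR = 0.00339 and 5.23e-04). Both transcripts are short, at 869 and 1736 nt, and neither passed after the length correction (adjusted p by edgeR = 0.117 and 0.107). TXNL1 rose by 0.39 ± 0.08 (adjusted p by edgeR = 0.00779) and by 0.86 after that correction. The remaining higher one, named after its values were seen, was TXNRD2.

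Of 17 tested genes of the SIN3 corepressor, the complex that MNT and the MXD proteins recruit, 5 were higher and 4 lower, with a median of 0.12. The scaffold gene SIN3A fell by 0.67 ± 0.13 and ARID4B by 0.49 ± 0.08 on the log2 scale, whereas the small subunit SAP30 rose by 0.67 ± 0.08 (adjusted p by edgeR = 0.00557, 0.00296 and 8.6e-04). None of these 3 passed after the length correction (adjusted p by edgeR = 0.191, 0.346 and 0.454), but 6 genes of the list were then higher and 1 lower. The higher ones, named after their values were seen, included the deacetylase gene HDAC2 (0.92), the histone-binding subunit RBBP4 (0.67) and SAP18 (0.55). Before the correction they stood at 0.24, 0.12 and 0.81, and RBBP4 did not pass (adjusted p by edgeR = 0.103). The longest transcripts of HDAC2 and RBBP4 have 9874 and 7943 nt. By limma on TPM 0 were higher, also 0 unadjusted, and 5 lower.

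**Figure D5:**
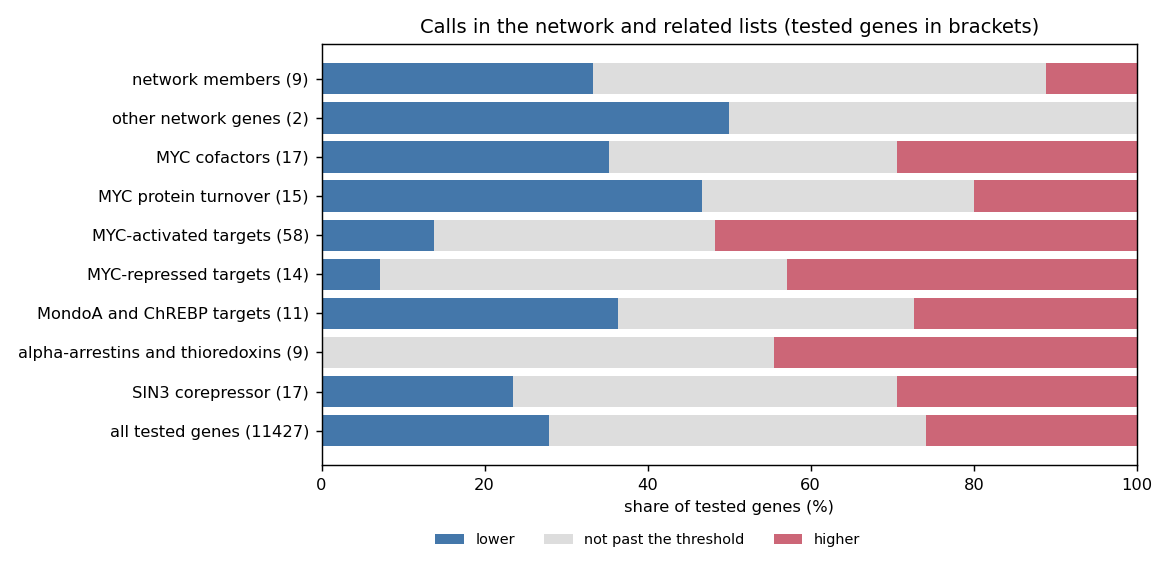
Share of tested genes (horizontal axis, %) that were lower, not past the threshold or higher with saikosaponin A by edgeR in the 10 members and 8 related lists, with the number tested in brackets and all tested genes in the last bar. The MYC-activated list has the widest higher part, 30 of 58, on the TMM scale.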

How the data were processed

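The deposited table lists, per the file headers, counts and FPKM of 29435 genes in each of 6 libraries. The deposited counts are whole numbers and were treated as raw. The FPKM values were made by the authors, scaled for transcript length and library size. cutadapt 1.9, HISAT2 2.0.4, StringTie 1.3.4d and GRCh38 come from the submitters' processing notes; which annotation, strand setting and counting step were used is not given there. The columns with SA in their names were assigned to saikosaponin A, the rest to DMSO.

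Genes reaching 1 FPKM in 3 or more libraries (11427) were fitted with edgeR 4.0.16 (TMM, quasi-likelihood test, two-sided, Benjamini-Hochberg over all tested genes, threshold 0.05). Standard errors are the log2 fold change over the root of F. The common biological coefficient of variation was 15.3%. Alternatives used DESeq2 1.42.0, limma 3.58.1 on log2(FPKM + 1), and a loess offset (span 0.5) for the longest GENCODE 29 transcript. Only the main edgeR fit and its length correction were tried on simulated data, and the DESeq2 and limma fits were not. Libraries held 57768359 to 74912492 counts, which sets the precision of low genes such as ARRDC4. Replicate numbers were not used to pair libraries.

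All 10 members are named, and from each other list the 3 called genes of smallest p, or 2 genes where none passed; further genes are marked in the text as named after their values were seen, or lie below the filter. The members and lists were chosen with earlier results of these data known. Of the other lists, 7 genes were not analysed here; PHB1 was matched to its older symbol by gene ID. Alternatives to the unfiltered fit of ARRDC4 were added after seeing the data. 1 gene of these lists is counted but not reported by name here.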

Additional observations from a re-analysis of the deposited data

How the results depend on the processing

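MNT and MLXIP passed as lower in 19 of 19 alternatives each, MXD1 in 13 of 19, and MLX passed as higher in 14 of 20; MYC had the same sign in 20 of 20 and passed in 7. The count of higher members was 0 on library totals, on FPKM (either pseudocount) and TPM with limma, with the length correction and with both block and length correction. The count of lower members was 1 among genes of mean FPKM of at least 5, where MNT, MLXIP and MXD1 were not tested and MXD4 was the 1, and 5 in the 4 libraries with few mitochondrial reads. All genes numbered 2956 higher and 3190 lower; higher were 1272 on library totals, 914 on FPKM, 886 with a pseudocount of 0.1 and 49 on TPM. With mean FPKM of at least 5 they were 1579 and 1811 (fewer genes tested), with the length correction 1791 and 1747, and with block and length correction 920 and 948. The median log2 fold change of all genes was -0.12 on library totals, -0.11 on FPKM and -0.31 on TPM.

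Signs turned only for members that did not pass. MAX was -0.09 on library totals and on FPKM, -0.10 with the small pseudocount, -0.29 on TPM, -0.08 at mean FPKM of at least 5, -0.01 with the length correction, and from -0.06 (without DMSO replicate 1) to 0.21 (without DMSO replicate 3) with 1 library left out, being -0.02 without DMSO replicate 2. TXNIP was -0.001 on library totals, -0.01 on FPKM with either pseudocount, -0.21 on TPM and -0.11 after quantile normalisation. MXI1 was -0.18 on TPM, and MXD4 was 0.04 with the length correction, with and without the block. After quantile normalisation MYC was -0.63 (adjusted p by limma = 0.04999). The cause was not tested.

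The labels do not say whether a replicate number marks a shared culture or day. Deviations from the group mean of same-numbered libraries correlated at -0.336, 0.287 and -0.351. DMSO replicate 3 and saikosaponin A replicate 1, the libraries of high mitochondrial share, correlated at 0.55. With 3 libraries per group, whose deviations depend on each other, these values cannot decide whether the numbers mark pairs. With the replicate block 1 member was higher and 2 lower, MXD1 being lost (-0.77, adjusted p by edgeR = 0.0515), and all genes gave 2074 higher and 2542 lower; ARRDC4 was lost too (adjusted p by edgeR = 0.0673). With block and length correction MXD1 was -0.44 (adjusted p by edgeR = 0.224). The block left 1 of the MLXIP targets and 1 of the MYC turnover genes higher, 3 of the cofactors, 3 of the SIN3 genes, and 20 of the MYC-activated genes, of which quantile-normalised FPKM gave 10 higher and 13 lower. Leaving out 1 library gave 2 to 4 members lower and 1 higher, and 2005 to 3153 higher and 2594 to 3249 lower genes in all.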
